A study of Homo sapiens with 2 samples.

Results

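Mucins are large glycoproteins whose central domains carry dense chains of O-linked sugars. The gel-forming mucins (MUC2, MUC5AC, MUC5B and MUC6) are secreted and polymerise into mucus, whereas the membrane-bound mucins (MUC1, MUC4, MUC13, MUC16 and MUC20) stay attached to the surface of epithelial cells, where several of them also bind signalling receptors. They are known as products of airway, gut, reproductive tract and glandular epithelia and of carcinomas derived from them. The 9 genes described here were the rows of the deposited table with these symbols, of 60527 genes in all. They were selected on the gene family and with their FPKM values in these libraries already known, the level and the difference between libraries included, so both are given as a description.

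The 2 libraries used here came from RNA sequencing of cultures grown as SK-MEL-2, an established human melanoma line labelled as skin melanoma cells. The DMSO culture had received the solvent and the JNJ culture 1.75 µM JNJ-7706621, a small molecule known to inhibit cyclin-dependent and Aurora kinases, both for 48 h. The labels name no genetic change in either culture. Each group was 1 labelled library, so no difference below has a replicate check and no p-value was computed. The deposited table holds 2 more value columns, by their names a second one for each group. No sample label matches them, and they were not used. The intervals in parentheses are 95% counting intervals. Levels are in FPKM, fragments per kilobase of exon and per 1000000 fragments of the library total, and are thus per length. In bulk RNA, fewer cells making a transcript and less of it per cell cannot be told apart.

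Most markers of pigment cells were at or near 0. Of 10 melanocyte markers, 3 reached a mean of 1 FPKM, namely MITF (2.65 FPKM with DMSO and 2.27 FPKM with JNJ-7706621), PMEL (2.00 and 3.71 FPKM) and MC1R (1.56 and 0.772 FPKM). TYR, S100B and SLC45A2 stood at 0 in both libraries, and the summed level of the 10 was 6.48 FPKM with DMSO and 7.02 FPKM with JNJ-7706621. Of 10 epithelial markers 8 reached 1 FPKM, GRHL2 stood at 0 in both libraries, and the sums were 2288 and 2283 FPKM. Most of these sums came from KRT18 (1117 and 1123 FPKM), KRT8 (720 and 703 FPKM) and KRT7 (305 and 289 FPKM). EPCAM stood at 55.7 and 59.4 FPKM, and CLDN3 at 0.403 and 0.138 FPKM. The epithelial markers as a list thus stood far above the melanocyte markers, unlike the melanoma label. The identity of the cells was not tested. None of 5 leukocyte and 5 fibroblast or endothelial markers had a mean of 1 FPKM (0 of 5 in each list). The library totals were 23377161 and 22817719 reads.

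Many mucins carry tandem repeats, and the 3 words below show them for members that the results turn on. Each is the most frequent exact word at the main repeat length (9 to 100 bases were searched) in the longest GENCODE 29 transcript. That length is the shortest whose repeats covered nearly as many bases as those of any length. Words run 5′ to 3′ and start at an arbitrary point of the repeat, and capitals are not used. The MUC5AC word is itself made of shorter stretches much like each other. Its 72 bases are thus not the basic unit, and 3 is not the number of repeats.
MUC1, 60 bases, 19 exact copies: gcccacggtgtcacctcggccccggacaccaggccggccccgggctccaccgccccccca
MUC5AC, 72 bases, 3 exact copies: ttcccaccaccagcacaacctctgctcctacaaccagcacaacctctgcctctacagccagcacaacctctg
MUC5B, 87 bases, 3 exact copies: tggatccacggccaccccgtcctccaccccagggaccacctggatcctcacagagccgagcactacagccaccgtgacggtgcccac
Repeats of these lengths, taken as windows of 60 bases at least 80% identical to the next copy, covered 63.0% of the 4170-base MUC1 transcript, 25.4% of the 17448-base MUC5AC transcript and 6.31% of the 17911-base MUC5B transcript. Repeats longer than 100 bases are not in these shares. Of the 50-base words of the same transcripts, 42.4% in MUC1, 21.4% in MUC5AC and 29.2% in MUC5B occurred more than once. By that measure MUC5B was thus more repetitive than MUC5AC. The number of repeat copies in these cells was not measured, and the FPKM values divide by reference lengths.

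Repetition within a gene did not extend to sharing between the abundant genes. Of the 50-base words of MUC5AC, 0.434% also occurred in MUC5B, and 0.431% of those of MUC5B in MUC5AC. No such word of MUC1, MUC2, MUC4, MUC6, MUC13 or MUC16 occurred in the annotated transcripts of another gene (0.0% for each). MUC20 was the exception: 54.1% of its words occurred in other transcripts, first of all those of the pseudogene MUC20P1 and the overlapping noncoding gene MUC20-OT1. Its values are therefore uncertain.

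MUC5B and MUC5AC, both secreted polymers of airway mucus, were the abundant mucin transcripts of these cells. Together they held 95.1% of the summed FPKM of the 9 genes with DMSO and 97.1% with JNJ-7706621. In the DMSO library MUC5B stood at 224 FPKM (222 to 225), rank 118 among 19874 protein-coding genes, on 97211 reads. MUC5AC stood at 73.7 FPKM (72.8 to 74.5), rank 409, on 30048 reads. MUC5B was the higher of the pair by a factor of 3.04 (3.00 to 3.07). Its reads alone were 0.416% of the library total given above.

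The membrane-bound mucins were far lower. MUC1, which lines the surface of most glandular epithelia, stood at 8.83 FPKM (8.29 to 9.41) in the DMSO library, rank 4010. MUC16, the carrier of the CA125 antigen, stood at 3.24 FPKM (3.13 to 3.35) on 3316 reads. MUC13, a mucin of the gut surface, stood at 2.92 FPKM (2.56 to 3.32) on 239 reads. The levels of MUC16 and MUC13 did not differ beyond counting error, with a ratio of 1.11 (0.971 to 1.27).

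The other 4 members were below 1 FPKM in both libraries. MUC6, a mucin of gastric glands, had 31 reads with DMSO, or 0.157 FPKM (0.107 to 0.223), and MUC2, the main intestinal mucin, had 37 reads, or 0.125 FPKM (0.0880 to 0.172). These neighbours in the order of levels did not differ beyond counting error either, with MUC2 at 0.795 times MUC6 (0.480 to 1.33). MUC20 had 3 reads and MUC4, a large mucin that binds ERBB2, had 4 reads, at 0.0188 and 0.00814 FPKM, with overlapping intervals. The plot of levels shows this spread.

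**Figure D1:**
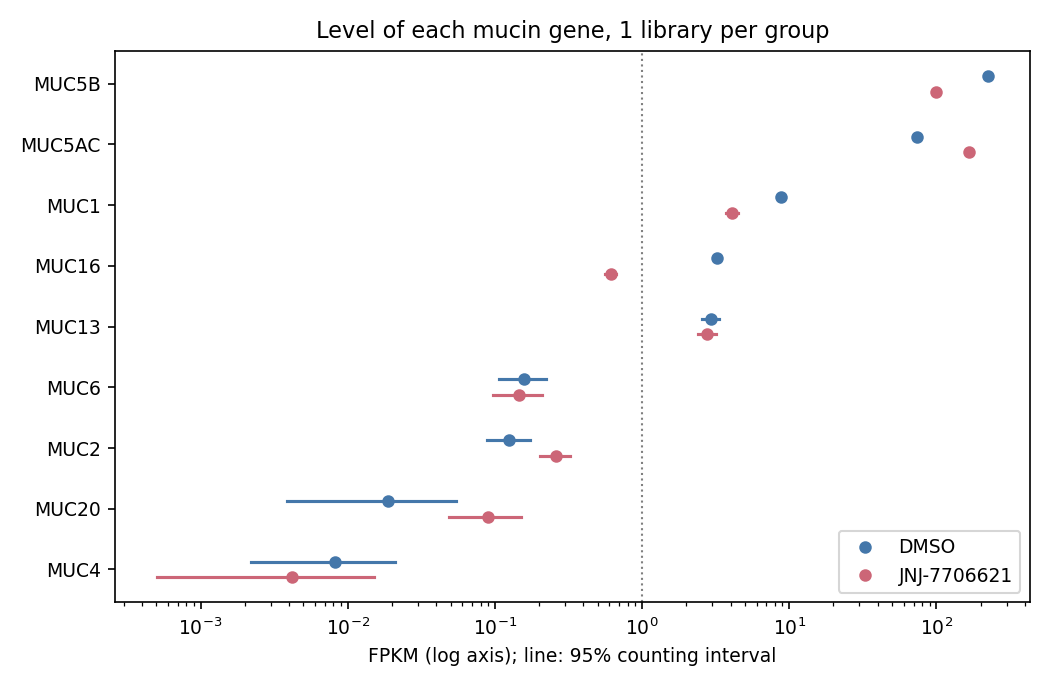
Level of each mucin gene in FPKM (log axis) in the DMSO library (blue) and the JNJ-7706621 library (red), with 95% counting intervals that are narrower than the points for the abundant genes; the dotted line marks 1 FPKM. MUC5B and MUC5AC lie between 73.7 and 224 FPKM, and MUC6, MUC2, MUC20 and MUC4 lie below 1 FPKM in both libraries.

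The next question was how these levels stood in the culture given JNJ-7706621. The leading gel-forming mucins changed places: MUC5AC was higher and MUC5B lower than with DMSO. Among the membrane-bound mucins, MUC16 and MUC1 were lower and MUC13 was close to its DMSO level.

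MUC5AC stood at 73.7 FPKM in the DMSO library and 168 FPKM in the JNJ-7706621 library (166 to 169), on 30048 and 66789 reads, a ratio of 2.28 (2.25 to 2.31). MUC5B went the other way, from 224 FPKM to 99.9 FPKM (99.0 to 101), on 97211 and 42394 reads, a ratio of 0.447 (0.442 to 0.452). The library with JNJ-7706621 thus held more MUC5AC than MUC5B, by a factor of 1.68 (1.66 to 1.70). The ratio of MUC5AC to MUC5B was 5.10 times as high as with DMSO (5.01 to 5.19). MUC5AC moved from rank 409 to rank 170 among protein-coding genes, and MUC5B from 118 to 320.

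The sum of both differed less than its parts. MUC5AC and MUC5B together stood at 297 FPKM with DMSO and 268 FPKM with JNJ-7706621, a ratio of 0.900. MUC5AC made up 24.8% of this sum in the first library and 62.7% in the second. The low gel-forming members added little: MUC2 had 37 and 75 reads, or 0.125 and 0.259 FPKM, a ratio of 2.08 (1.38 to 3.17). MUC6 had 31 and 28 reads, or 0.157 and 0.145 FPKM, a ratio of 0.925 (0.535 to 1.59) whose interval holds 1. With JNJ-7706621, MUC2 was 1.78 times as high as MUC6 (1.14 to 2.86).

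Of the 3 membrane-bound mucins with a mean of 1 FPKM or more, MUC16 had the FPKM ratio farthest from 1, while MUC1 had the larger difference in FPKM. MUC16 stood at 3.24 FPKM with DMSO and 0.612 FPKM (0.564 to 0.662) with JNJ-7706621, on 3316 and 612 reads, 5.29-fold lower, a ratio of 0.189 (0.173 to 0.206). MUC1 stood at 8.83 and 4.08 FPKM (3.71 to 4.48), on 974 and 439 reads, a ratio of 0.462 (0.412 to 0.517). MUC13 stood at 2.92 and 2.77 FPKM (2.42 to 3.16), on 239 and 221 reads, and its ratio of 0.947 had an interval (0.785 to 1.14) that holds 1. With JNJ-7706621, MUC13 stood at 4.52 times the level of MUC16 (3.86 to 5.28), from which it did not differ beyond counting error with DMSO.

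The summed level of the 5 membrane-bound members was 15.0 FPKM with DMSO and 7.55 FPKM with JNJ-7706621. MUC1 was the largest part of it in both, at 58.8% and 54.0%, while MUC16 made up 21.5% and 8.10% and MUC13 19.5% and 36.7%. MUC20 had 3 and 14 reads, a ratio of 4.78 (1.33 to 25.9), and shares sequence as given above. MUC4 had 4 and 2 reads, a ratio of 0.512 (0.0463 to 3.57), so a difference was not detectable at this depth.

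**Figure D2:**
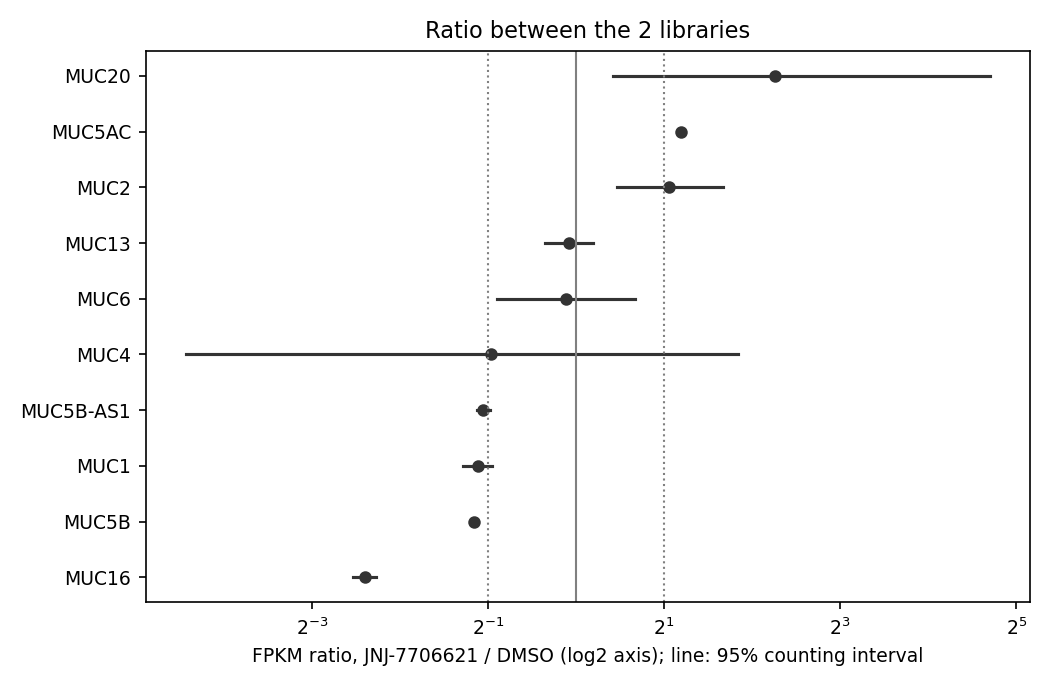
FPKM ratio of the JNJ-7706621 library to the DMSO library (log2 axis) for the 9 mucin genes and MUC5B-AS1, each with its 95% counting interval; the solid line marks equal levels and the dotted lines 2-fold differences. MUC16 at 0.189 lies lowest, and MUC5B at 0.447, MUC1 at 0.462 and MUC5B-AS1 at 0.482 lie close together. MUC2 at 2.08, MUC5AC at 2.28 and MUC20 at 4.78 lie beyond the upper dotted line, MUC2 and MUC20 on few reads.

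To set these differences beside all genes, the difference of log2(FPKM + 1) was taken for genes with a mean of at least 1 FPKM, and a gene was called where it was at least 1 or at most -1. The added 1 understates differences at low levels. Of the 9 members 5 passed this filter on level. MUC5AC was called higher (log2 difference 1.18), and MUC5B (-1.15) and MUC16 (-1.39) lower. MUC1 lay just outside the rule at -0.95, although its FPKM ratio was beyond 2-fold, and MUC13 stood at -0.06. Of 13241 genes with a mean of at least 1 FPKM, 2.39% were called higher and 1.36% lower, 3.75% in all, and their median was -0.0032. Since the members were proposed with this contrast known, nothing is read from their count against that share. In lists and windows as short as those below, that share gives few calls or none, so nothing is read from their counts either.

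MUC6, MUC2, MUC5AC and MUC5B are neighbours on the short arm of chromosome 11, so the opposite differences of MUC5AC and MUC5B lay side by side in the genome. On GRCh38 with GENCODE 29, MUC6 lies at chr11:1012821-1036706 on the minus strand, and MUC2 (chr11:1074875-1110511), MUC5AC (chr11:1157953-1201138) and MUC5B (chr11:1223066-1262172) on the plus strand. The stretch between MUC5AC and MUC5B measures 21927 bases. Between PNPLA2 and BRSK2, 8 other protein-coding genes reached a mean of 1 FPKM, and 0 of them were called in either direction. Their log2 differences ran from -0.57 for PNPLA2, a lipase at 17.7 and 11.6 FPKM, to 0.13. In the fixed list of neighbours, which reaches further, 0 of 8 were called and the highest was EPS8L2, just outside this window, at 17.2 and 28.2 FPKM and a log2 difference of 0.68. The nearest on either side, AP2A2, an endocytic adaptor subunit, and TOLLIP, a Toll-like receptor adaptor, had FPKM ratios of 1.04 (0.978 to 1.11) and 1.12 (1.00 to 1.24).

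The antisense gene MUC5B-AS1 (chr11:1242261-1249676, minus strand) differed much as MUC5B did. It stood at 465 FPKM with DMSO and 224 FPKM with JNJ-7706621, on 4719 and 2221 reads, a ratio of 0.482 (0.458 to 0.507). All of its exon length (434 bases) lies within MUC5B exons, while it overlaps 2.33% of the exon length of MUC5B. Its FPKM was 2.08 times that of MUC5B with DMSO (2.02 to 2.14) and 2.25 times with JNJ-7706621 (2.15 to 2.34). Whether counting used strand is not given, so reads of this pair cannot be told apart.

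**Figure D3:**
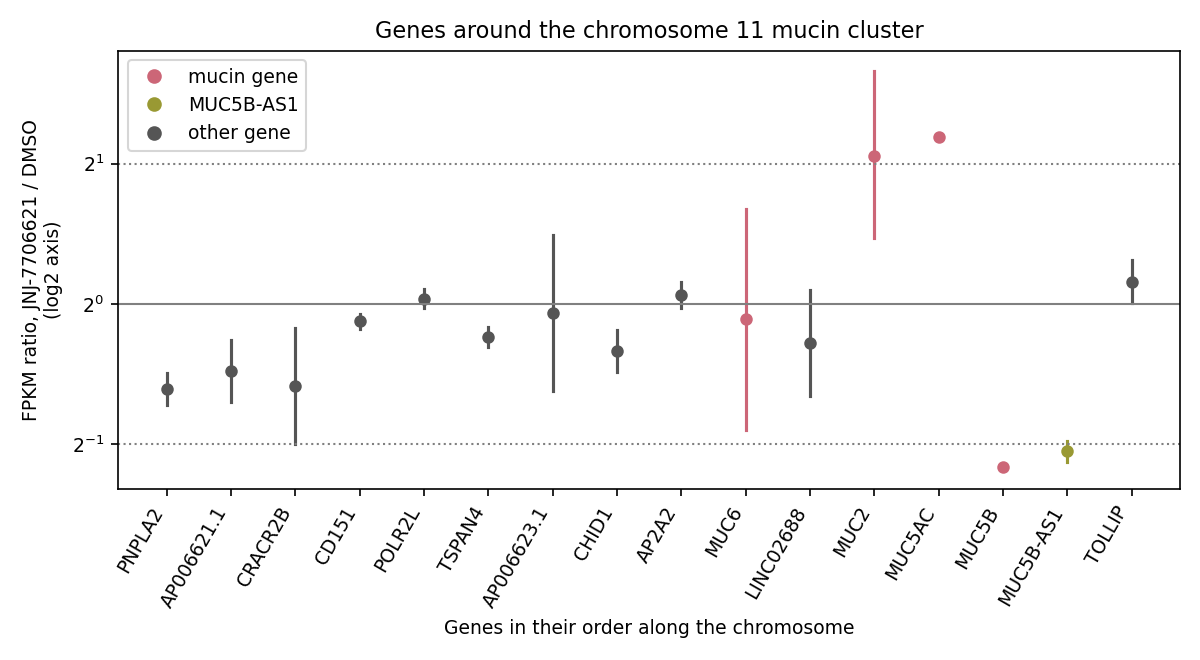
FPKM ratio of the JNJ-7706621 library to the DMSO library (log2 axis, lines are 95% counting intervals) for genes between PNPLA2 and TOLLIP with a mean of at least 1 FPKM and the 4 mucin genes, in their order along chromosome 11; solid line, equal levels; dotted lines, 2-fold. MUC5AC at 2.28 and MUC5B at 0.447 are adjacent and lie on opposite sides of equal levels, and the protein-coding genes around the cluster lie between the dotted lines.

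The other members lie elsewhere. MUC1 (chr1:155185824-155192916, minus strand) sits next to THBS3, a thrombospondin gene, which stood at 4.65 and 2.13 FPKM, a ratio of 0.458 (0.390 to 0.537) close to the 0.462 of MUC1. Exons of other genes overlap 25.4% of the THBS3 exon length and 1.02% of that of MUC1. The remaining 4 protein-coding genes of that window (5 with THBS3) had log2 differences up to 0.36, and 0 were called. MUC20 (chr3:195720882-195741123) and MUC4 (chr3:195746765-195812277) adjoin on chromosome 3, and there 0 of 6 other protein-coding genes at 1 FPKM or more were called. TFRC, the transferrin receptor, stood at 26.0 and 35.6 FPKM in that window. Counts of 0 called in windows this small are near the 3.75% called over all genes with a mean of at least 1 FPKM. MUC20-OT1, which overlaps 42.8% of the MUC20 exon length, stood at 0.95 and 1.06 FPKM, a ratio of 1.11 (0.966 to 1.28). MUC13 lies at chr3:124905442-124953819 and MUC16 at chr19:8848844-8981342, both on the minus strand.

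Promoters are shown for MUC1 and MUC16, the membrane-bound members that were lower with JNJ-7706621. RefSeq promoter windows, 250 bases before to 50 after a start site on GRCh38.p14, were at hand for 5 of the 9 members (MUC1, MUC2, MUC4, MUC13 and MUC16), with 2 windows each for MUC1 and MUC16, of which 1 each is printed. Capitals mark TATAAA and GGGCGG on either strand, and sequences run 5′ to 3′ along the minus strand.
MUC1, chr1:155192866-155193165: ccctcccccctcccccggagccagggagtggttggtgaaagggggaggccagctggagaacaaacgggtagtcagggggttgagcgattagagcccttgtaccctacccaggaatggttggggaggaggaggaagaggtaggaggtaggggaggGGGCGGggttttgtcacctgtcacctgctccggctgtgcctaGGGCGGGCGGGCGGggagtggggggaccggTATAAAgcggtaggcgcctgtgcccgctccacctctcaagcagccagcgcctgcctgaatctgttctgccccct
MUC16, chr19:9065702-9066001: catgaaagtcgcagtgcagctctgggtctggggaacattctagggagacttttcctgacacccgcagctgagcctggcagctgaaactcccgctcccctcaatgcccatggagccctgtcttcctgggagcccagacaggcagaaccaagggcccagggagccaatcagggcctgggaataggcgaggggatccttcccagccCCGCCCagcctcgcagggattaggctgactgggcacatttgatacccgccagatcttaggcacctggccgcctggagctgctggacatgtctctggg
The printed MUC16 window and the other one both lie outside the GENCODE 29 bounds of the gene given above, as the RefSeq transcripts start further upstream. The MUC1 window holds TATAAA, which 11.5% of the 35116 RefSeq windows hold. Both printed windows hold GGGCGG, found in 45.0% of windows, and the E-box CACCTG, found in 20.6%, and that of MUC16 also holds CCAAT, found in 34.6%. The other MUC1 window (chr1:155192860-155193159) nearly coincides with the printed one and holds the same motifs. The other MUC16 window (chr19:9010360-9010659) holds CACCTG, the AP-1 motif TGANTCA (7.71% of windows) and the NF-kB motif (11.3%), and neither GGGCGG nor CCAAT. All motifs were searched on both strands, and a match is a description of letters only.

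Other mucin and mucin-like genes were measured from a list of 28 symbols, of which 25 were in the table. Most mucins outside the 9 were close to silent. MUC7, MUC17, MUC21, MUC22 and MUCL1 had 0 reads in both libraries, which for the shortest of them, MUCL1, allows up to 0.103 and 0.105 FPKM at 3 reads. MUC3A had 15 and 32 reads, MUC12 had 10 and 9, MUC19 had 1 and 5. The 6 genes of the list with a mean of 1 FPKM or more were mucin-like surface proteins, and 0 of them were called, with a median log2 difference of -0.11. TMEM123 stood at 92.4 and 97.5 FPKM, and CD164, a sialomucin of adhesion, at 26.9 and 21.8 FPKM. PODXL, the podocalyxin gene, stood at 11.4 and 8.60 FPKM and its relative PODXL2 at 5.90 and 11.1 FPKM. MCAM, an adhesion molecule also called MUC18, stood at 3.35 and 5.69 FPKM and PARM1 at 2.87 and 1.83 FPKM. In the list of antisense genes, overlapping genes and pseudogenes, 6 of 10 symbols were in the table, 4 of these reached a mean of 1 FPKM and 1, MUC5B-AS1, was called lower. Of the pseudogenes, SDHAP1 stood at 4.45 and 4.00 FPKM, and SDHAP3 had 2.92 FPKM with DMSO against 1.68 FPKM with JNJ-7706621.

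Enzymes that build mucin-type sugar chains were measured from a pair of lists. Of 21 GalNAc transferases, which attach the first sugar, 11 had a mean of 1 FPKM or more; 0 were called, 8 lay above 0 and 3 below, with a median log2 difference of 0.20. GALNT8, GALNT17 and GALNTL5 had 0 reads in both libraries. GALNT2 stood at 14.5 and 24.7 FPKM, a ratio of 1.70 (1.62 to 1.78). GALNT14 and GALNT18 had log2 differences of 0.73 and 0.61 at low levels and ratios of 2.39 (1.86 to 3.10) and 2.03 (1.56 to 2.64). GALNT5 was at 0.38 and GALNT3, on the other side, at -0.40.

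Of 21 genes that extend or cap the chains 12 had a mean of 1 FPKM or more. Of these 1 was called higher and 0 lower, with a median of 0.08. It was ST3GAL1, which adds sialic acid to the core 1 chain, at 8.87 and 21.0 FPKM, a ratio of 2.37 (2.25 to 2.51). B4GALT5, a galactosyltransferase, stood at 43.1 and 65.6 FPKM. ST3GAL2 had a log2 difference of 0.40, ST6GALNAC1, which makes the sialyl-Tn cap, one of -0.37, and FUT3, the Lewis fucosyltransferase, one of -0.54.

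Genes of mucus granules and of proteins secreted with mucins numbered 26, of which 11 had a mean of 1 FPKM or more, 1 was called higher and 0 lower, with a median of 0.06. DMBT1, a mucosal scavenger protein, was the called gene, at 0.452 and 2.31 FPKM, a ratio of 5.12 (4.12 to 6.42). MARCKS, which takes part in mucin granule release, stood at 24.9 and 44.9 FPKM and STX3, an apical syntaxin, at 5.47 and 8.49 FPKM. ZG16B had a log2 difference of -0.34 and TFF1, a trefoil factor bound to MUC5AC in the stomach, one of 0.33 with a ratio whose interval holds 1, at 1.59 (0.643 to 4.17).

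Of 28 transcription factors reported to drive mucin genes, 17 had a mean of 1 FPKM or more, 0 were called, 11 lay below 0 and 6 above, and the median was -0.19. SPDEF, a factor of goblet cell differentiation, stood at 30.5 and 17.3 FPKM, a ratio of 0.567 (0.518 to 0.620). KLF5, an epithelial factor, stood at 36.1 and 20.2 FPKM and CREB3L4 at 7.12 and 3.62 FPKM. GATA6, a foregut factor, went the other way at 0.728 and 1.61 FPKM, a ratio of 2.21 (1.65 to 3.00). Whether these levels bear on those of the mucins was not tested.

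Of 19 partners, ligands and sheddases of membrane mucins, 18 had a mean of 1 FPKM or more, 1 was called higher and 0 lower, and the median was 0.17. ICAM1, an adhesion molecule that binds MUC1, was the called gene, at 1.67 and 8.69 FPKM, a ratio of 5.19 (4.31 to 6.29). Exons of other genes overlap 23.6% of its exon length. SRC, a kinase that phosphorylates the MUC1 tail, stood at 34.2 and 57.5 FPKM and LGALS1, a galectin, at 158 and 245 FPKM. RDX, which links membrane proteins to actin, stood at 21.5 and 12.2 FPKM and ADAM10, a sheddase, at 5.78 and 3.88 FPKM.

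**Figure D4:**
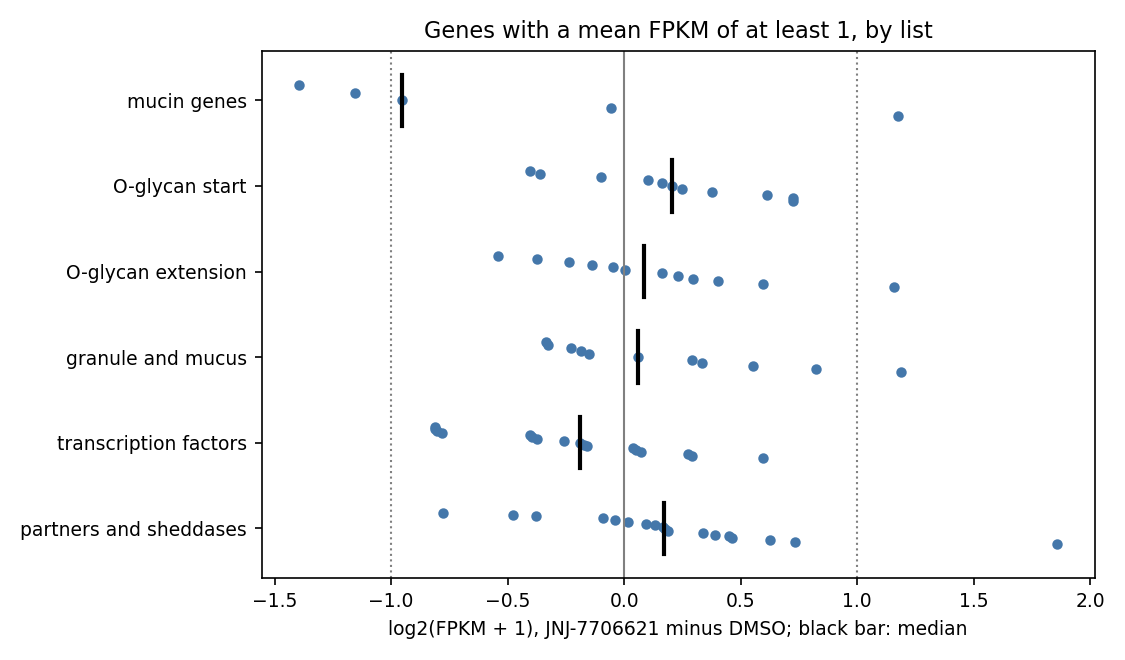
Difference of log2(FPKM + 1) between the JNJ-7706621 and DMSO libraries for each gene with a mean of at least 1 FPKM (points, 1 gene each) in 6 lists, with the list median as a black bar and dotted lines at -1 and 1. The median is -0.95 for the mucin genes and lies between -0.19 and 0.20 for the other 5 lists. Single genes spread from -1.39 to 1.18 among the mucin genes and from -0.78 to 1.86 among the partners and sheddases. The mucin median rests on 5 genes, chosen with these values known.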

How the data were processed

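The authors deposited FPKM values per gene for single libraries, per the file headers. Build hg38 and the tool edgeR appear, with no role or version, in the submitters' processing notes. For the aligner, counter, annotation release and strand setting, nothing is given in the sources used here. Of 4 value columns, 2 matched sample labels and were used, and 2 were not used here, because no sample label matches them. By their names these hold a second column for each group, so the lack of a replicate check is one of the labelled samples used.

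Library totals and whole reads were recovered from the FPKM values as the numbers for which FPKM times exon length times total is whole within 0.0001 reads. This used GENCODE 29 exon lengths or, where these gave no whole reads, the nearest length within 0.25 to 4 times. Reads were recovered for 27805 of 28014 annotated genes above 0. Of the members, MUC4, MUC6 and MUC20 needed another length, for MUC20 6837 in place of 4249 bases. With 1 library per group, no test of the treatment was made. Ratios of FPKM carry Clopper-Pearson intervals conditional on the sum of reads, and levels exact Poisson intervals, at 95%. Both cover counting error only. Intervals on a ratio of ratios use a normal approximation on the log scale.

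Log2 differences used a pseudocount of 1 and a mean of at least 1 FPKM. The calculations were tested on simulated libraries. The members and lists were chosen with earlier results of these data known. Named genes are the members, mucin-like, antisense and overlapping genes at 1 FPKM or more in either library, up to 5 genes of each other list with the largest log2 difference in size, and up to 3 of each set of neighbours. A gene that this rule takes is not reported here. Others (the nearest neighbours, BRSK2, the named cell type markers and genes without reads) were named after their values were seen. Alternatives were other pseudocounts, scalings and filters. Python 3.11.15, numpy 2.4.6, pandas 2.3.3 and SciPy 1.17.1 were used.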

Additional observations from a re-analysis of the deposited data

How the results depend on the processing

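No paired analysis was made because each group has 1 labelled library, and for the same reason no library could be left out. Under the alternatives of pseudocount (0.1 and 0.5), scaling and filter, the count of mucin genes called higher was 1 in each. Those called lower, 2 as reported, were 3 with either pseudocount and after rescaling to a sum of 1000000, and 1 with a mean of at least 5 FPKM, a filter that MUC16 and MUC13 do not pass. The log2 differences of 49 named genes kept their sign under each setting (28 of 28 with the filter at 5 FPKM). This is no check on them, because a pseudocount or a filter cannot change a sign. The scalings moved the libraries against each other by factors of only 0.997 and 1.01. Genes of the other lists called higher and lower, 3 and 1 as reported, were 6 and 2 with a pseudocount of 0.1, and 2 were lower after rescaling. Over all genes, 316 were called higher and 180 lower as reported. These were 608 and 409 with a pseudocount of 0.1, 714 and 478 after rescaling, 145 and 75 with the filter at 5 FPKM, and 462 and 274 with a pseudocount of 0.5. A smaller pseudocount or larger values weigh the added number less, and a higher filter tests fewer genes. After rescaling, the mean of at least 1 was asked of the larger values, so more genes passed the filter as well. Depth limits MUC2, MUC4, MUC6 and MUC20, which rested on 75 or fewer reads a library.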
